A study of Mus musculus with 9 samples.

Results

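Genes that mark mesenchymal cells were examined in the mouse line C127: Vim, Acta2, Tagln and S100a4 (cytoskeleton and calcium binding), Fn1, Sparc and Lox (extracellular matrix), and Pdgfra, Pdgfrb and Thy1 (cell surface). These 10 of 21938 protein-coding genes were chosen by name, with earlier results of these data known. For each gene, the 5′ end of every GENCODE M21 transcript was placed against non-methylated islands (NMIs), and CpG density was taken within 500 bp of the outermost 5′ end. An NMI lay at a 5′ end of 4 of the 10 genes, Vim, Fn1, Lox and Pdgfra, and within 2 kb of a 5′ end of Sparc. Acta2, Tagln, S100a4, Pdgfrb and Thy1 had no NMI within 2 kb of any 5′ end. An NMI lay at a 5′ end of 47.5% of all protein-coding genes, so that 4 of 10 was near the share of genes at large.

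The 9 samples of the series were labelled as C127, a mammary epithelial line, with no treatment beyond the RNA label, and comprised 1 BioCAP library, 1 BioCAP input, 1 ATAC input, 3 ATAC libraries and 3 libraries of nascent RNA labelled with 4-thiouridine. BioCAP retains fragments of genomic DNA that have clustered non-methylated CpG sites on a resin coated with the CXXC domain of KDM2B. Only the NMIs called from the single BioCAP library were used here, as positions without a score, while the remaining samples were not analysed here. There were therefore no replicates, no difference between genes was tested, and the read depth behind an NMI is unknown.

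Most CpG sites of mammalian genomes are methylated, and non-methylated CpG is concentrated in islands that often contain promoters. Proteins with a CXXC domain, among them CFP1 of the SET1 complex and KDM2B, bind such DNA. Mesenchymal cells such as fibroblasts and smooth muscle cells are known for vimentin filaments, contractile actin bundles, a secreted matrix and receptors for platelet-derived growth factor, and many of these genes are also switched on when epithelial cells take on mesenchymal features. An NMI is a property of DNA and not a measure of expression, and a gene without one is a gene for which this list holds none.

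The promoters of Vim, which lay inside an NMI, and of Acta2, which lay far from any, are shown first, as a sequence inside the islands and one outside them. Both are given 5′ to 3′ on the strand of the gene, from 250 bases before to 30 bases after the RefSeq transcript start (GRCm38.p6, the coordinates of mm10), with every CpG in capitals. The Vim window (chr2:13574061-13574340, plus strand) held 9 CpG and the Acta2 window (chr19:34255344-34255623, minus strand) held 5.
Vim: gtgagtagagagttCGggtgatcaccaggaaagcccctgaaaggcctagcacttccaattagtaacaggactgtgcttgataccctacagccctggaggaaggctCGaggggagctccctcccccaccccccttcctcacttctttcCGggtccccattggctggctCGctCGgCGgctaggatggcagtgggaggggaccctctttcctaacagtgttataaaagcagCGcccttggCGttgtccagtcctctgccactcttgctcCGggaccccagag
Acta2: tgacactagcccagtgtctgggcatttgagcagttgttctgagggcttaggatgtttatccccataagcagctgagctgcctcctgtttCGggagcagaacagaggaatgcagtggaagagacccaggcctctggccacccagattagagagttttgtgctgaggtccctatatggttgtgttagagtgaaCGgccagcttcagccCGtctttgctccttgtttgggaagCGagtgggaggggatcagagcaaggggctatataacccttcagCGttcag

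The other RefSeq promoters found for these genes were those of S100a4, Sparc and Pdgfra. None of them lay in an NMI, although Sparc and Pdgfra had one further into the gene. The S100a4 window (chr3:90603520-90603799, plus strand) held 2 CpG, the Sparc window (chr11:55420051-55420330, minus strand) 4, and the Pdgfra window (chr5:75152001-75152280, plus strand) 4. The NMI nearest to the RefSeq start was 489 bp downstream at Pdgfra and 1398 bp downstream at Sparc.
S100a4: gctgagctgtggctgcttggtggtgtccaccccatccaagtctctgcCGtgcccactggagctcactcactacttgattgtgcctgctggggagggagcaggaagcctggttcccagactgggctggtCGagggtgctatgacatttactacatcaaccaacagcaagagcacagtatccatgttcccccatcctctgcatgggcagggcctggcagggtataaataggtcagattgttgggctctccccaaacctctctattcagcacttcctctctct
Sparc: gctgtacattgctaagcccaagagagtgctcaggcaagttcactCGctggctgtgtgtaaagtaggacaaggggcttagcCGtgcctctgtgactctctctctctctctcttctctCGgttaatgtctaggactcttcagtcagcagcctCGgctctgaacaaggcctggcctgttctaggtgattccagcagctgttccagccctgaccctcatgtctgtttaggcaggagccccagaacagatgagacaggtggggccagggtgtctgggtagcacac
Pdgfra: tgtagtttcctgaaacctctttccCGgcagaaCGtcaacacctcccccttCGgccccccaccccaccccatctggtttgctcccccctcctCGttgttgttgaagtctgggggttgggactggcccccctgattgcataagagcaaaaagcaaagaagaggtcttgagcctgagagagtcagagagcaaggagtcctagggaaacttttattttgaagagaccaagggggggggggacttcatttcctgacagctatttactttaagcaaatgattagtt

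The sequence where the NMIs of these last genes began or were densest is given from the same RefSeq genome for comparison with their promoters, again with CpG in capitals. The Pdgfra stretch ran from the first base of its NMI to the base before the next annotated 5′ end (chr5:75152740-75152934, plus strand, 7 CpG). The Sparc stretch was the part of its intronic NMI with the most CpG in 200 bases (chr11:55418128-55418327, minus strand, 10 CpG), and it began 4856 bp from the outermost 5′ end. It held more CpG in 200 bases than the promoter of the same gene held in 280. The stretch was chosen for its CpG count and the promoter by position, so this comparison favours the stretch.
Pdgfra NMI: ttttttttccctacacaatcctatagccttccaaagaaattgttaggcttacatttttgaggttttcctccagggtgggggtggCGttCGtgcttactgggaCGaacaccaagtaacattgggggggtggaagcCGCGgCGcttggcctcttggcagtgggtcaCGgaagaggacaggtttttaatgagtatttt
Sparc NMI: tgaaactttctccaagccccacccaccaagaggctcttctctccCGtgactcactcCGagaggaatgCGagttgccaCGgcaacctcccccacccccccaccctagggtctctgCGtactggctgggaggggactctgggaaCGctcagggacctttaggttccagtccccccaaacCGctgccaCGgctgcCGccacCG

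RefSeq promoters were found for 5 of the 10 genes, the ones printed above. Counted over the full 300 bases from 250 before to 50 after the start, Vim held 11 CpG, Acta2 6, Pdgfra 5, Sparc 4 and S100a4 2, against a median of 7 over 32851 promoters. Of these 5 genes only Vim was above this median, at percentile 60.4, and S100a4 was lowest at percentile 23.3. The remaining genes were not counted in this way, so the 5 do not stand for all 10. Within 250 bp of the outermost end, the uncounted genes had 7.78 (Fn1), 4.59 (Thy1), 4.39 (Tagln), 2.99 (Lox) and 2.99 (Pdgfrb) CpG per 100 bp. Vim had 3.79 in that window. Core promoter motifs were then searched on both strands of the 5 RefSeq promoters. TATAAA, the core of the TATA box, began 32 bases before the start of Vim and 31 bases before that of S100a4, and was present in 13.6% of all promoters. Only this exact sequence was searched, so that nothing follows for TATA boxes of other forms, at Acta2 or elsewhere. CCAAT was found in Vim alone of the 5, on the reverse strand with its outer base 94 bases before the start and on the forward strand 196 bases before it, and was present in 37.4% of all promoters. GGGCGG (the GC box) was not found in these 5 windows, against 35.7% of all promoters. The CArG box was searched only in its strict form, CC and GG around 6 bases that are each A or T, which 1.63% of all promoters held and these 5 windows did not. Elements that differ from it by 1 base were not searched, so that nothing follows for CArG elements at Acta2. TATAAA thus occurred both in a promoter inside an NMI (Vim) and in one 9067 bp from the nearest (S100a4), and these matches describe the sequence only.

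The cytoskeletal genes were divided, with an NMI at Vim and none at the other 3. Vim, which encodes the intermediate filament protein vimentin, had an NMI of 2719 bp (chromosome 2, 13573435 to 13576153). It ran from 492 bp upstream to 2226 bp downstream of the outermost 5′ end and held 5 of the 6 distinct 5′ ends. Exons of any annotated transcript made up 81.9% of it and sequence outside the gene 18.1%. The retained-intron transcripts Vim-204 and Vim-205 start inside it, so bases that are intron in other transcripts can count as exon here. The end that lay outside belonged to Vim-203, a retained-intron transcript 5442 bp into the gene and 3216 bp from the NMI. Among the 9581 NMIs at a protein-coding 5′ end, the Vim NMI was wide and sparse in CpG: its width was at percentile 97.3 (median 1173 bp), and its density of 4.23 CpG per 100 bp was at percentile 5.81 (median 6.89). CpG density was 1.10 per 100 bp in the 1 kb on either side.

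Within the Vim NMI, CpG density was not highest at the outermost 5′ end. It was 4.00 per 100 bp around the ends of Vim-202 and Vim-201, 5.89 around Vim-206 and 6.59 around Vim-205, which starts 596 bp downstream. The densest window of the same size near any Vim end was centred 600 bp downstream. The reach of the NMI was in the same direction. Of 9330 protein-coding genes with the outermost end in an NMI, the median reach was 398 bp upstream and 744 bp downstream, and Vim was at percentile 61.4 upstream and 98.4 downstream.

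Acta2, Tagln and S100a4 had no NMI nearby, and CpG density below the protein-coding median within 500 bp of the outermost end. Acta2 encodes the smooth muscle isoform of actin (chromosome 19, 34241090 to 34255590, minus strand), and both of its 5′ ends were outside any NMI, the nearer 34840 bp away. Tagln encodes transgelin, an actin-binding protein of smooth muscle (chromosome 9, 45929619 to 45936058, minus strand), and its 3 ends were 18261 bp or more from an NMI. S100a4 encodes a small calcium-binding protein (chromosome 3, 90603771 to 90606045, plus strand), and the nearer of its 2 ends was 7926 bp from one. These nearest NMIs belonged to other genes: Fas for Acta2, Sidt2 for Tagln and S100a6 for S100a4. Around the outermost end, CpG density per 100 bp was 1.50 at Acta2, 2.60 at Tagln and 1.10 at S100a4, all under the protein-coding median of 4.10. At Tagln this depended on the window: within 250 bp of the outermost end the density was 4.39 per 100 bp, above that of Vim (3.79) and Lox (2.99) in the same window. A further protein-coding gene model on the strand of S100a4, Gm42674, started 1867 bp upstream of it and was also without an NMI.

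**Figure D1:**
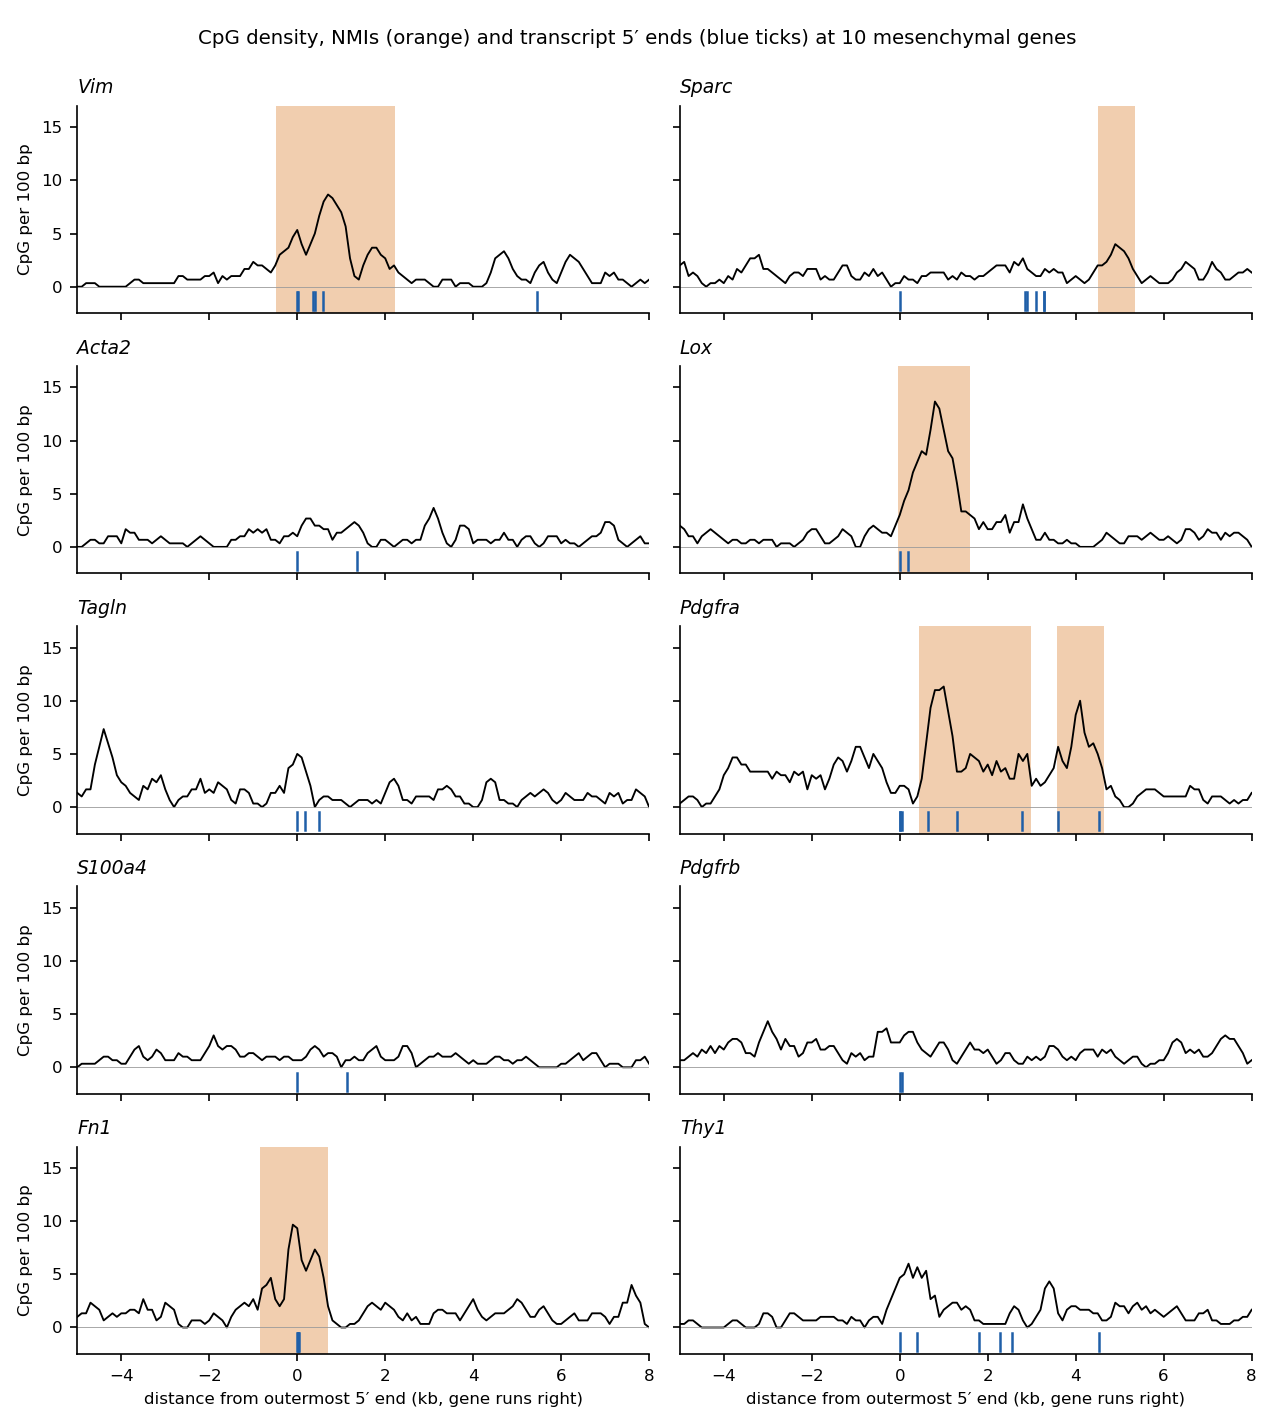
CpG density in 300-bp windows (line, CpG per 100 bp) against distance in kb from the outermost 5′ end for each of the 10 genes, with NMIs as orange bands and transcript 5′ ends as blue ticks. The ticks of Vim, Fn1 and Lox at 0 kb lie in a band, the first ticks of Pdgfra lie 448 bp before one, the Sparc band begins 4501 bp downstream of the outermost end, and the other 5 panels hold no band.

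Of the matrix genes, Fn1 and Lox had an NMI at the outermost 5′ end and Sparc had NMIs in introns only. Fn1 encodes fibronectin, a matrix glycoprotein to which integrins bind. Its NMI was 1540 bp wide (chromosome 1, 71652506 to 71654045) and extended 845 bp upstream and 694 bp downstream. It was the only NMI among these genes that lay mostly outside the gene (54.9%). Its density was 5.45 CpG per 100 bp (percentile 21.3) and its width was at percentile 74.9. The antisense gene Apol7d has 4 annotated 5′ ends in the same NMI, from 135 to 324 bp from an Fn1 end, so that the NMI cannot be assigned to Fn1 alone.

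The 5′ ends of Fn1 fell into a cluster inside the NMI and a scatter outside it. Of 17 transcripts, 10 started in the NMI, at 4 distinct positions within 39 bp of each other. The other 7 were retained-intron or nonsense-mediated decay transcripts that started 11912 to 62129 bp into the gene, and the nearest NMI was 11218 to 45112 bp away. CpG density around the outermost end was 6.29 per 100 bp, the highest of the 10 genes and the only one at or above the protein-coding median.

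Lox encodes lysyl oxidase, which cross-links collagen and elastin. Its NMI was 1636 bp wide (chromosome 18, 52528261 to 52529896) and held both of its 5′ ends. It reached 29 bp upstream and 1606 bp downstream of the outermost end, at percentile 0.932 and percentile 94.6 of protein-coding genes with the outermost end in an NMI. The Lox NMI thus lay almost wholly downstream, and 67.5% of it was exon. It was the densest of the NMIs at these genes, with 7.76 CpG per 100 bp (percentile 66.4) and an observed/expected CpG ratio of 0.791, the CpG count relative to that given by the base composition. The window at the outermost end, with 3.60 CpG per 100 bp, took in the sparse upstream side, whereas the densest window near a Lox end had 10.2 CpG per 100 bp and was centred 750 bp downstream. An antisense gene model, AC161119.1, also had its 5′ end in this NMI.

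Sparc encodes an acidic matrix protein that binds collagen. None of its 8 distinct 5′ ends lay in an NMI. The 5 ends that lay 2858 to 3285 bp into the annotated gene, the RefSeq start among them, were 1216 to 1643 bp from an NMI of 849 bp that was wholly intronic (chromosome 11, 55417834 to 55418682). The outermost end, of Sparc-208, was 4501 bp from it. A narrower intronic NMI of 184 bp lay further into the gene (chromosome 11, 55406012 to 55406195). The wider NMI had 2.94 CpG per 100 bp and the narrower 2.17, against a median of 3.51 over the 3602 NMIs that hold no 5′ end of any annotated gene. In that set the wider Sparc NMI was at percentile 88.2 for width (median 330 bp) and percentile 31.1 for density. It was still richer in CpG than its surroundings, which had 0.75 per 100 bp in the 1 kb on either side.

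CpG was scarce around the 5′ ends of Sparc, with at most 1.80 per 100 bp at any of them. The density of 0.799 per 100 bp around the outermost end was the lowest of the 10 genes, and 43.3% of that window was repeat sequence, the largest share among them. The densest window near a Sparc end (2.70 per 100 bp) was the one centred 4785 bp downstream, inside the wider NMI. Of the 6 genes without an NMI at a 5′ end, Sparc alone had an NMI elsewhere in the gene, as did 7.35% of the 11513 protein-coding genes without one at a 5′ end, and it alone had an NMI within 2000 bp of an end, as did 4.15% of them. With NMIs within 2000 bp counted, 5 of the 10 genes were called, against 49.7% of protein-coding genes.

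**Figure D2:**
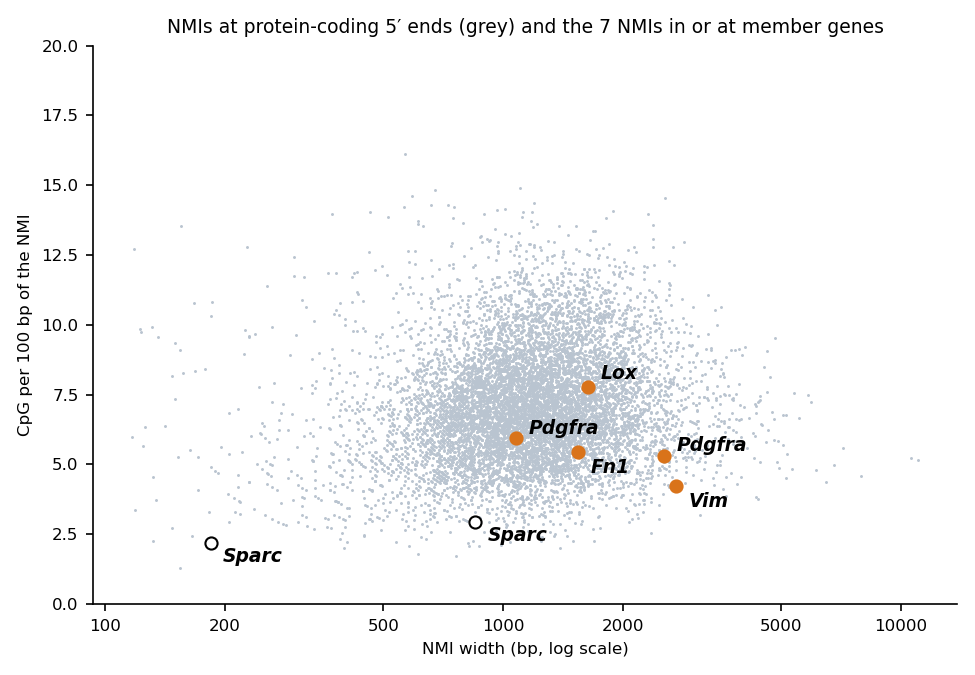
Width (bp, log scale) and CpG per 100 bp of the 9581 NMIs at protein-coding 5′ ends (grey points), of the 5 NMIs at 5′ ends of the mesenchymal genes (orange points) and of the 2 intronic NMIs of Sparc (open circles). Vim and the wider Pdgfra NMI lie at the wide and sparse side, at 2719 bp with 4.23 and 2538 bp with 5.32 CpG per 100 bp, and Lox is the densest at 7.76.

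The receptor genes differed from each other. Pdgfra and Pdgfrb encode the 2 receptor tyrosine kinases for platelet-derived growth factor, and Thy1 encodes a glycoprotein anchored to the surface of fibroblasts, thymocytes and neurons. Pdgfra had 2 separate NMIs, whereas Pdgfrb and Thy1 had none. The first Pdgfra NMI was 2538 bp wide (chromosome 5, 75152740 to 75155277), with 5.32 CpG per 100 bp. The second was 1077 bp wide (chromosome 5, 75155864 to 75156940), with 5.94 CpG per 100 bp, and the gap between them was 586 bp. Both lay wholly inside the annotated gene. Their widths were at percentiles 96.3 and 41.8, and their densities at percentiles 19.2 and 30.2, of NMIs at protein-coding 5′ ends.

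The outermost 5′ ends of Pdgfra were not in these NMIs. Pdgfra-208, Pdgfra-201 and Pdgfra-207 started 448, 434 and 388 bp before the first NMI, in windows of 1.50 to 1.80 CpG per 100 bp. Pdgfra-205, Pdgfra-204 and Pdgfra-206 started inside the first NMI, with 6.39, 6.69 and 3.20 CpG per 100 bp around them, and Pdgfra-202 and Pdgfra-209 inside the second, with 4.80 and 4.40. The last end, of Pdgfra-203, was 4894 bp from an NMI. Pdgfra was thus called through downstream ends only: among the 10425 protein-coding genes with an NMI at a 5′ end, 10.5% likewise had the outermost end outside any NMI, and 3.91% had ends in 2 or more NMIs. Pdgfra had 9 distinct 5′ ends, against a median of 3 per protein-coding gene. The antisense gene model Gm42802 also started in the first NMI, and the model Gm42803 started in the gap, 58 bp from an NMI.

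Pdgfrb was the gene farthest from an NMI. Its 2 ends (outermost at chromosome 18, 61045150, plus strand) were 131258 and 131308 bp from the nearest, which held a 5′ end of Hmgxb3. Over protein-coding genes without an NMI, other than those on Y, the median distance was 73055 bp, and Pdgfrb was at percentile 61.8, whereas Acta2 (34.4), Thy1 (23.0), Tagln (22.5), S100a4 (12.5) and Sparc (3.27) were nearer than that median. The CpG density of 3.10 per 100 bp at Pdgfrb was higher than the 1.80 at the outermost end of Pdgfra. The pair therefore ran against the order of CpG density when density was taken at the outermost end. Taken at the densest 5′ end it was 6.69 at Pdgfra and 3.10 at Pdgfrb.

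Thy1 had the highest CpG density of the genes without an NMI. Its 6 ends (outermost at chromosome 9, 44043384, plus strand) were 18811 to 23349 bp from an NMI at Usp2. Density was 3.80 per 100 bp around the outermost end and 4.30 around Thy1-205. A CpG island predicted from sequence lay at Thy1 (chromosome 9, 44043435 to 44044146, 712 bp, 5.34 CpG per 100 bp), and no NMI overlapped it. Among islands predicted by the same criteria that held a 5′ end of these genes, it was the least dense. The Fn1 island that overlapped an NMI had 5.62 CpG per 100 bp, that of Vim 6.36 and that of Lox 7.67.

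**Figure D3:**
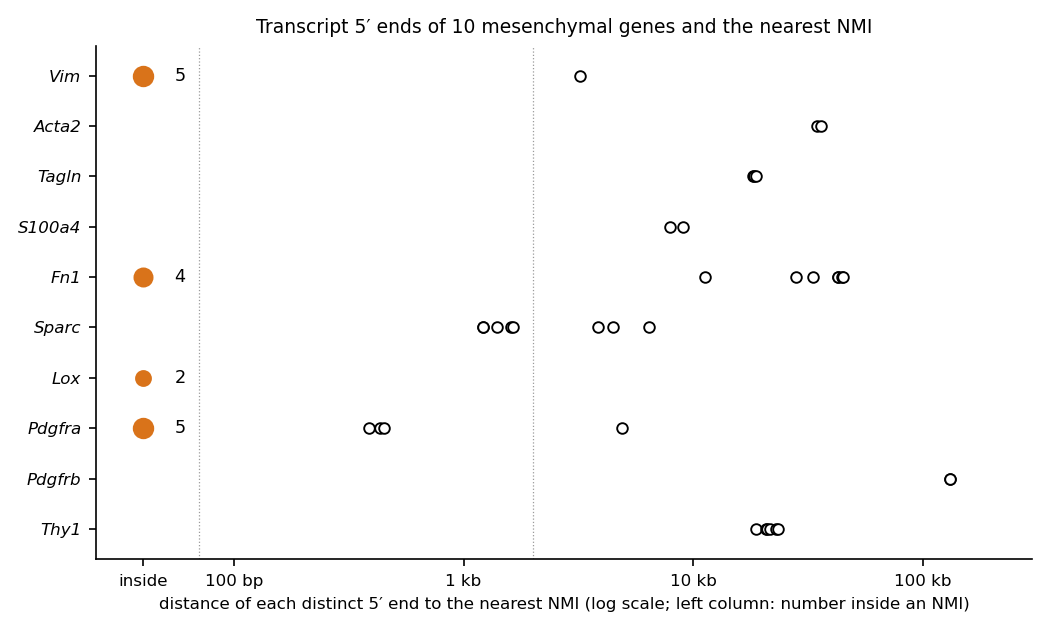
Distance of each distinct 5′ end of the 10 genes to the nearest NMI (log scale, open circles), with the number of ends inside an NMI in the left column (filled circles). Ends inside an NMI number 5 at Vim, 4 at Fn1, 2 at Lox and 5 at Pdgfra, and the dotted line at 2 kb has ends of Sparc and Pdgfra on its near side.

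Over all 10 genes, 16 of 51 distinct 5′ ends lay in an NMI, against 38.4% of 93513 ends of protein-coding genes. Ends of 1 gene lie close together and are not independent. By the outermost end alone, 3 genes were called (Vim, Fn1 and Lox), against 42.5% of protein-coding genes. With all annotated transcripts counted, the counts by gene, by end and by outermost end were each near or under the share of genes at large.

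CpG density around the outermost end was then compared between genes with and without an NMI, since islands are rich in CpG. The median was 3.80 per 100 bp for the 4 genes with an NMI and 2.05 for the 6 without, against 6.49 and 1.40 over protein-coding genes. The difference of 1.75 fell to 0.998 with 250 bp on either side of the end, and to 0.999 when an NMI within 2000 bp counted and Sparc moved to the genes with one. The groups overlapped: with an NMI, the values were 1.80 at Pdgfra, 3.60 at Lox, 4.00 at Vim and 6.29 at Fn1, and without, they were 0.799 at Sparc, 1.10 at S100a4, 1.50 at Acta2, 2.60 at Tagln, 3.10 at Pdgfrb and 3.80 at Thy1. Thy1 was thus above both Lox and Pdgfra. At the densest 5′ end of each gene, the values ran from 5.09 to 6.69 with an NMI and from 1.10 to 4.30 without, and did not overlap. An NMI at any 5′ end counted, and the densest end of each of the 4 genes with an NMI lay inside it. This separation is therefore not independent of the call, and genes with more ends can reach a higher value. The medians at the densest end were 6.49 and 2.25 for these genes, and 7.19 and 1.70 over protein-coding genes. The difference between the 4 and the 6 genes was not tested.

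The genes were also read against others of like density at the outermost end. Of protein-coding genes with 3 to 4 CpG per 100 bp, 48.6% had an NMI (95% interval 46.0 to 51.3%), and Vim and Lox of the 4 genes in this range had one, with Pdgfrb and Thy1 without. With 1 to 2 CpG per 100 bp the share was 12.9%, and Pdgfra had an NMI whereas Acta2 and S100a4 did not. With 2 to 3 it was 22.7% (Tagln, without), with 0 to 1 it was 4.70% (Sparc, without), and with 6 to 8 it was 81.6% (Fn1, with). Apart from Pdgfra, each gene in a range with a share far from an even split followed the majority of that range.

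**Figure D4:**
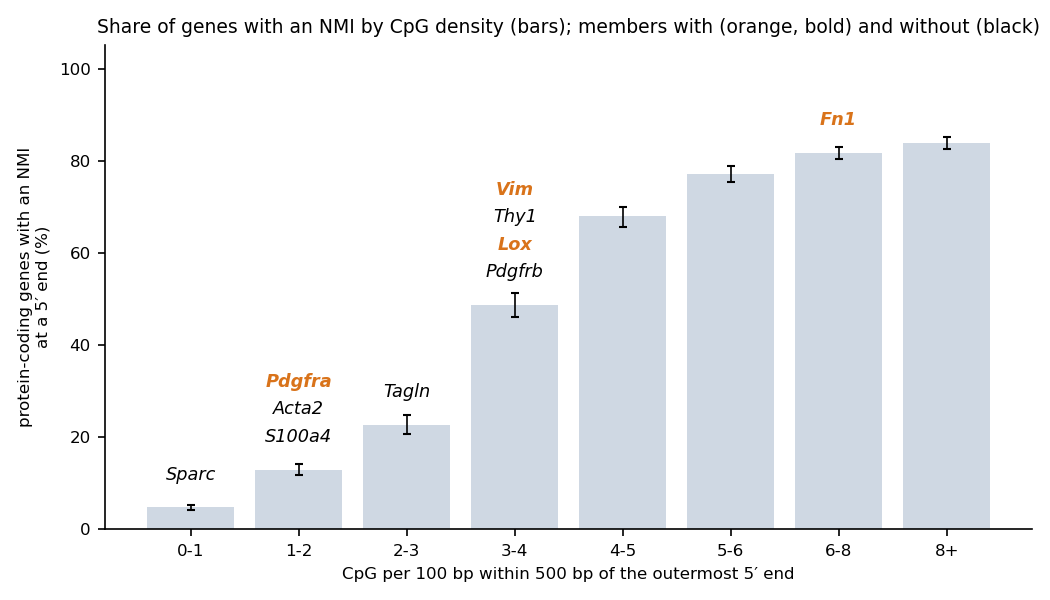
Share of protein-coding genes with an NMI at a 5′ end (%, bars, with exact 95% binomial intervals) by CpG per 100 bp within 500 bp of the outermost 5′ end, with the mesenchymal genes above their bar, bold orange with and black without an NMI. The share rises from 4.70% below 1 to 81.6% at 6 to 8, and the 4 genes at 3 to 4, where it is 48.6%, divide evenly.

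CpG islands predicted from sequence, as unions of 500-bp windows that reached 55% GC and an observed/expected ratio of 0.65, were set beside the NMIs. Such islands held a 5′ end at 5 of the 10 genes, the 4 with an NMI and Thy1. The share of all protein-coding genes with such an island at a 5′ end was not computed, so whether 5 of 10 is usual is not known. Of the 7 islands with a 5′ end, 5 overlapped an NMI, against 74.0% of 12324 predicted islands with a protein-coding 5′ end. The 2 without were that of Thy1 and an island of 611 bp in Fn1, 43484 bp into the gene at the retained-intron transcript Fn1-202. At Pdgfra, islands of 1128 and 1052 bp overlapped the first and the second NMI, the former beginning 400 bp downstream of the outermost end, before the start of its NMI at 448 bp, and an island of 541 bp that ended 600 bp upstream of the outermost end held neither a 5′ end nor an NMI. The island at Lox was 1682 bp and that at Vim 1054 bp wide, against NMIs of 1636 and 2719 bp. The Vim NMI thus extended well past the predicted island, and that of Lox did not. Acta2, Tagln, S100a4, Sparc and Pdgfrb had no such island within 2 kb of a 5′ end. Under looser criteria (200-bp windows, 50% GC and a ratio of 0.6), Acta2, Tagln and Pdgfrb each had 1 island within 2 kb, none of which held a 5′ end or overlapped an NMI. That of Tagln was 259 bp wide, with 4.25 CpG per 100 bp, and ended 2 bp upstream of the outermost 5′ end. S100a4 and Sparc had none under these criteria either.

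Relatives of the cytoskeletal genes were examined next. Their counts are to be read against the 47.5% of all protein-coding genes with an NMI at a 5′ end, and no list was tested. Of the type III intermediate filament genes, Vim was the only one of 4 with an NMI, and Des, Gfap and Prph (desmin, glial fibrillary acidic protein and peripherin) had none, although Des had 6.99 and Prph 5.69 CpG per 100 bp. Of 6 actin genes, the cytoplasmic actins Actb (2754 bp) and Actg1 (3253 bp) had an NMI, and Acta2 with the other muscle actins, Acta1, Actc1 and Actg2, had none. The muscle actins had 1.10 to 2.00 CpG per 100 bp, and Actb and Actg1 had 6.89 and 12.3. Of 6 transgelin and calponin genes, Tagln2, Cnn2 and Cnn3 had an NMI, and Tagln, Tagln3 and Cnn1 had none. Tagln2, with an NMI of 1416 bp, had 3.70 CpG per 100 bp, between Tagln (2.60) and Tagln3 (3.90), both without. Of 15 smooth muscle contractile genes, Acta2 and Tagln included, 5 had an NMI, Tpm1 (2883 bp), Tpm2 (1531 bp), Flna (971 bp), Smtn (966 bp) and Myl9 (131 bp), and Actg2, Cald1 and Cnn1 were among the 10 without. Of 13 S100 genes, S100a3 (1693 bp), S100a10 (1177 bp), S100a11 (780 bp) and S100a6 (466 bp) had one. S100a4 was among the 9 without, as were S100a1, S100a13, S100a14 and S100a16.

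The counts for relatives and partners of the matrix genes are likewise to be read against 47.5% of all protein-coding genes. Among them, lysyl oxidases had an NMI in 4 of 5. Besides Lox these were Loxl3 (1528 bp), Loxl4 (934 bp) and Loxl1 (743 bp), and Loxl2 had none at 5.39 CpG per 100 bp, a density above that of the 4 with one. The Lox NMI was the widest of the 4. The SPARC family had an NMI in 1 of 8, Smoc2 (1551 bp), and Sparc shared the lack of one with Fstl1, Smoc1 and Sparcl1 among others, each at a higher CpG density than Sparc (Smoc1 6.49 and Fstl1 5.29 per 100 bp). Of 8 genes for receptors that bind fibronectin, 6 had an NMI, the widest at Itga5 (1872 bp), Itgb5 (1783 bp), Itgav (1765 bp) and Sdc4 (1272 bp), and Itga4 and Itgb6 had none. Of 17 collagen and other matrix genes of fibroblasts, 6 had an NMI, the widest at Timp2 (1946 bp), Col5a1 (1506 bp), Col1a2 (1461 bp) and Col1a1 (1386 bp), and Col3a1, Col5a2, Col6a1 and Col6a3 were among those without.

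For the receptors, the ligand genes Pdgfa (3634 bp), Pdgfb (2794 bp) and Pdgfc (1570 bp) had an NMI, and Pdgfd had none. Of the 5 class III receptor tyrosine kinase genes, Pdgfra alone had one. Kit and Flt3 had none at 6.99 and 6.59 CpG per 100 bp, above the density at any end of Pdgfrb, and Csf1r had none at 1.00. In the epithelial list, set beside the mesenchymal genes because of the labelled cell type, 0 of 14 genes had an NMI at a 5′ end, Cdh1, Cldn3, Cldn4 and Cldn7 among them. Their median CpG density was 3.90 per 100 bp, against 2.85 for the 10 mesenchymal genes, and only Esrp2 had an NMI within 2 kb, at 1110 bp. These counts do not measure expression, the difference between the lists was not tested, and 47.5% of all protein-coding genes had an NMI.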

How the data were processed

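Genomic DNA of C127 cells was captured by BioCAP in 1 library. The authors called NMIs with MACS, named MACS2 in the submitters' processing notes, which also name Bowtie2, SAMtools and the build mm10. Read filters for BioCAP, the control behind this list and tool versions were not given in the sources used here. The deposited list gave 13491 NMIs as positions only, that is a chromosome, a start (counted from 0, given here from 1) and an end, with no score and no read count, and 13489 lay on chromosomes 1 to 19, X and Y.

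5′ ends were taken from all GENCODE M21 transcripts on GRCm38, which has the coordinates of mm10. An overlap of 1 bp counted. A base was taken as exon if any annotated transcript of the gene, retained-intron transcripts included, had it in an exon. CpG density, GC content, the observed/expected ratio and repeats (lower-case bases) came from the GRCm38.p6 sequence, and promoters from the RefSeq table of that build. Of the 10 genes, 5 matched this table. Percentiles give the share of the named set with an equal or lower value. Python 3.11.15, numpy 2.4.6, scipy 1.17.1, pysam 0.24.0 and matplotlib 3.10.9 were used. Intervals are exact (Clopper-Pearson) 95% binomial intervals and cover counting error only. The distance and density steps were checked on simulated intervals and a known sequence.

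The 10 genes and the lists of relatives were chosen with earlier results of these data known. All 10 are named. Of each list, all genes with an NMI are named where there were 5 or fewer, otherwise the 4 widest, and all genes without where there were 5 or fewer, otherwise the first 4 in alphabetical order. Genes with a 5′ end in an NMI of the 10 genes, or within 2 kb of their ends, are also named. With 1 library and no groups, no test and no p-value was computed. Alternatives were other distances to an NMI, other sets of transcripts, other window sizes and wide NMIs only.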

Additional observations from a re-analysis of the deposited data

How the results depend on the processing

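Of 23 alternative values for 4 results, 18 were graded as moving little, 5 as moved and 0 as reversed in direction. The 18 include the gene counts of 3 and 5, against 4, and the 13 of 33 ends given below. The 10 of 25 ends were graded as moved, although as a share they are close to 13 of 33. The count of 4 genes with an NMI held within 250 and 1000 bp of a 5′ end, with protein-coding or basic transcripts only, and without NMIs up to the lower quartile of width (572.5 bp). It was 3 by the outermost end and 5 within 2000 bp. Over the same settings, protein-coding genes with an NMI numbered 9330 to 10903. The difference in median CpG density between genes with and without an NMI, 1.75 per 100 bp, was 0.998 with 250 bp on either side of the outermost end, 2.87 with 1000 bp, 4.25 at the densest 5′ end, and 0.999 with NMIs within 2000 bp counted. In the last setting Sparc, the gene with the lowest density, joined those with an NMI. With basic transcripts only, 10 of 25 distinct ends lay in an NMI, and with protein-coding transcripts only 13 of 33, against 16 of 51. The share over all protein-coding ends was not taken under these restrictions.

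The list has no score, depth or replicate, so weakly captured islands cannot be told from methylated ones. Leaving out a replicate was not possible, since 1 library gave the list. No paired analysis was possible because the replicate numbers shared by the ATAC and nascent RNA libraries belong to samples not analysed here.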
